A study of Homo sapiens with 6 samples.

Results

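The expression of 40 genes that fold, check and dispose of proteins in the endoplasmic reticulum (ER), or that signal when this system is overloaded, was compared between CYGB-overexpressing and MOCK colon cancer cells, with P4HB followed transcript by transcript. The genes were chosen by symbol from a deposited table of raw counts per transcript, and the transcripts of each gene were summed. All 40 symbols were found, 1 gene identifier each, among 40173 genes of the table, and they held 281 transcripts. HCT116 is an established human colorectal cancer cell line. The MOCK group (3 libraries) is labelled HCT116 of wild type genotype, and the CYGB group (3 libraries) is the same line labelled CYGB overexpression, both at passages 15-20 in RPMI 1640 with fetal bovine serum and penicillin-streptomycin. CYGB encodes cytoglobin, a haem protein that binds oxygen. By the study's methods, CYGB cells received a lentivirus with the FLAG-tagged coding sequence of CYGB and MOCK cells a MOCK virus, and both were selected with puromycin as stable lines, so the wild type label does not mean uninfected cells. The 3 libraries of a group are described as biological replicates, without saying whether they came from separate infections or from separate cultures of 1 stable line. A p-value then measures only the spread between these libraries.

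Secreted and membrane proteins enter the ER through the SEC61 channel, bind chaperones such as BiP (HSPA5) and calreticulin (CALR), and gain disulfide bonds from the protein disulfide isomerases, of which P4HB (PDI) is the founding member. P4HB is also the beta subunit of collagen prolyl 4-hydroxylase and the partner of MTTP in lipoprotein assembly. When unfolded proteins build up, the sensors ERN1 (IRE1), EIF2AK3 (PERK) and ATF6 start the unfolded protein response: IRE1 cuts a short intron out of XBP1 mRNA, which then encodes an active transcription factor, PERK slows translation, and ATF6 is released as a factor that acts on chaperone promoters. Proteins that cannot be folded are sent out of the ER for degradation through SEL1L, SYVN1 and the DERL and EDEM proteins.

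Each library held 58138393 to 66035266 counts, of which 18.6% to 19.5% fell on transcripts with no gene assigned and were left out. CYGB, the check of the labels, had MOCK counts of 10, 28 and 34 and CYGB counts of 34935, 27681 and 32333. Of 8 markers of colon epithelium, EPCAM, CDH1, KRT8, KRT18, KRT19 and CLDN7 were at 116 CPM (counts scaled to a common library size) or more in every library, while CLDN4 and VIL1 did not exceed 1.65 CPM. PTPRC, CD3E, PECAM1, DCN, MZB1, JCHAIN and COL3A1, which mark blood, vessel, stromal and plasma cells, were at most at 0.389 CPM. VWF reached 1.88 CPM, CD68 lay between 9.90 and 25.2 CPM and COL1A1 between 44.3 and 53.7 CPM. The part of these markers in any result was not tested.

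The sequences that set the compared P4HB and XBP1 transcripts apart are printed here, because the P4HB transcripts that met the threshold differ within the transcript by these stretches, and the XBP1 forms by the intron that IRE1 removes. They were taken from GENCODE 29 transcripts on GRCh38, are written 5′ to 3′ on the minus strand of the genome, and show in capitals the bases that 1 form has and the other lacks. P4HB lies at chr17:81843159-81860694, and its full-length protein-coding transcript ENST00000331483 has 11 exons and 2603 bases. At the end of its exon 1, 20 coding bases (chr17:81860327-81860346) are absent from ENST00000575069, which GENCODE classes as a target of nonsense-mediated decay, the pathway that removes mRNAs with early stop codons. Because 20 is not a multiple of 3, the reading frame shifts there, just before the codons of the first active site of the enzyme.
ENST00000331483 at the end of exon 1: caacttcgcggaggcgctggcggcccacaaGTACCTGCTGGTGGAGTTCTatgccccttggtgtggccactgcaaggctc
ENST00000575069 across the same joint: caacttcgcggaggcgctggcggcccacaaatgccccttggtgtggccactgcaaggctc

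At the start of exon 6, 60 coding bases (chr17:81847013-81847072) are absent from ENST00000415593, a protein-coding transcript of 1669 bases that also lacks the first 867 bases of ENST00000331483. Its annotation starts within the coding sequence, in exon 5. The 60 bases are a multiple of 3 and leave the frame in place.
ENST00000331483 at the start of exon 6: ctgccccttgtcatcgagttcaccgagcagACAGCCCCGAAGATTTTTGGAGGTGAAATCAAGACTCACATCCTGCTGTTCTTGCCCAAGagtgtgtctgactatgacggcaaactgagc
ENST00000415593 across the same joint: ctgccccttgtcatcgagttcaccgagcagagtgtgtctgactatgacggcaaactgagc

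In XBP1 (chr22:28794555-28800597), the transcript ENST00000344347 lacks 26 bases (chr22:28796122-28796147) that ENST00000216037 has. This gap corresponds to the intron that IRE1 removes, so the first of these transcripts carries the spliced form and the second the unspliced form. The bases just before the gap recur at its end. The joined sequence therefore does not fix the exact cut sites, and the capitals show the gap as annotated.
ENST00000216037: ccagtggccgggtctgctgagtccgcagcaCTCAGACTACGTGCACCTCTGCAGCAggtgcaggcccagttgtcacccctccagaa
ENST00000344347: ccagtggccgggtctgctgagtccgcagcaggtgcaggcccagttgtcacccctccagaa

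Summed per gene, most members were measured at similar levels in both cell populations. Of the 40 genes, 39 passed the filter on low counts, and DERL3, a part of the degradation channel known from secretory cells, did not, with 0 to 6 counts per library. None of the 39 met the study's threshold for a differentially expressed gene (p of at most 0.01 with a ratio of at least 2 or at most 0.5), against 0.565% of the 19987 genes tested. None had a Benjamini-Hochberg adjusted p under 0.05 by edgeR's quasi-likelihood test, against 0.055% of all genes, and the lowest adjusted p among the members was 0.963. An unadjusted p under 0.05 was found for 2 members (HSPA5 and CRELD2), 5.13% of the 39 against 4.54% of all genes. By DESeq2, 1 member met the threshold and 0 had an adjusted p under 0.05, with 2 at an unadjusted p under 0.05. The shares of all genes were not counted for DESeq2, so these counts have no background beside them. The log2 fold change of CYGB over MOCK was positive for 27 members (69.2%) and negative for 12, against 48.8% positive over all genes. Its median was 0.04 beside -0.01 over all genes, and it was smaller than 0.2 in size for 30 members.

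**Figure D1:**
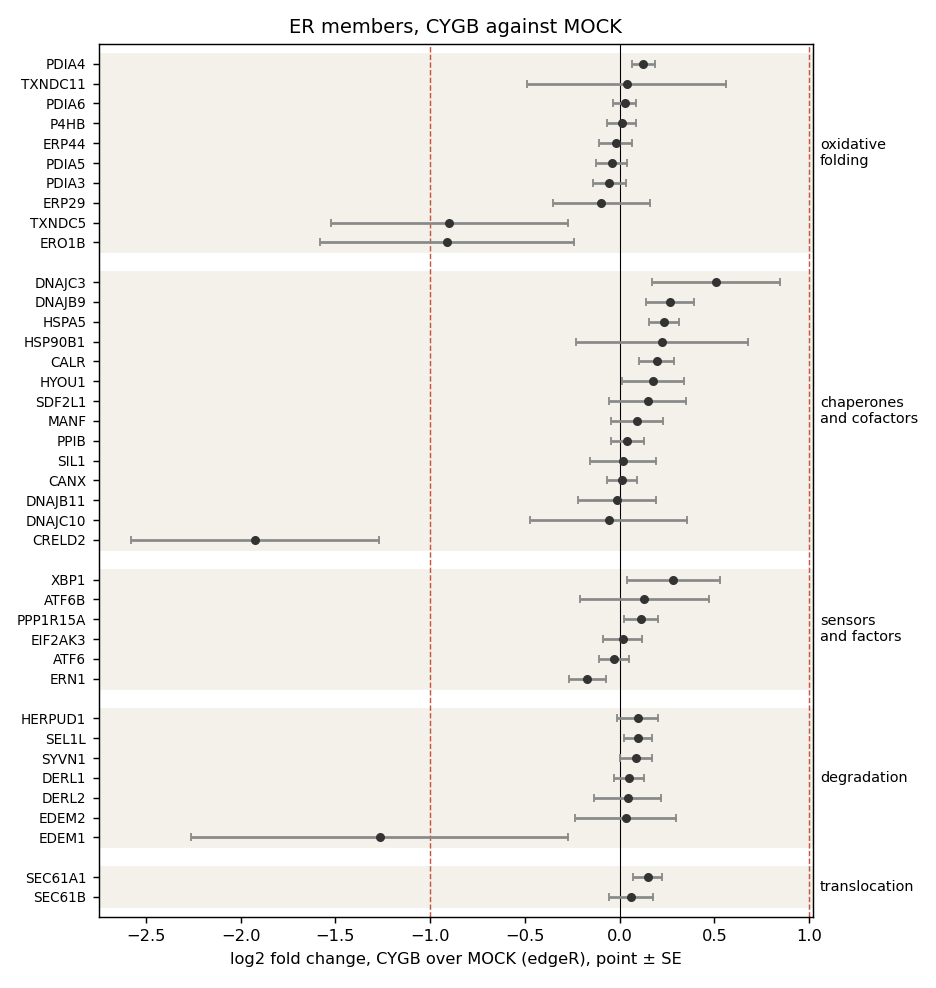
The log2 fold change of each of the 39 tested members (x axis, CYGB over MOCK, edgeR estimate with its standard error as bars), grouped by role, with dashed lines at a ratio of 0.5 and of 2. Most points sit within 0.2 of zero with short bars, and CRELD2 (-1.92) and EDEM1 (-1.27) lie beyond the lower line with wide bars.

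The members spanned a wide range of levels. On a per-length scale (TPM, counts divided by transcript length, scaled to a common total per library and summed over the transcripts of a gene), P4HB stood highest with 3094 to 3732 TPM over the 6 libraries, followed by CALR with 1933 to 2547, HSPA5 with 1086 to 1485 and PPIB, the cyclophilin B prolyl isomerase, with 876 to 1017. The ranges of these 4 neighbours did not overlap, although the P4HB level depends on how its counts were divided between short and long transcripts. The lowest tested members were the alpha-mannosidase-like EDEM1 (0.255 to 1.98 TPM) and the oxidase ERO1B (0.439 to 4.98 TPM). The 40 genes received 1.36% to 1.55% of the counts on genes in each library. The highest CPM of a member was less than 1.5 times the lowest for 24 of 39 members, and it was over 3 times for 7, among them EDEM1 (18.2), ERO1B (11.9), CRELD2 (9.54) and TXNDC5 (6.70). The median of this ratio was 1.32 for the members and 1.84 for all genes tested.

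**Figure D2:**
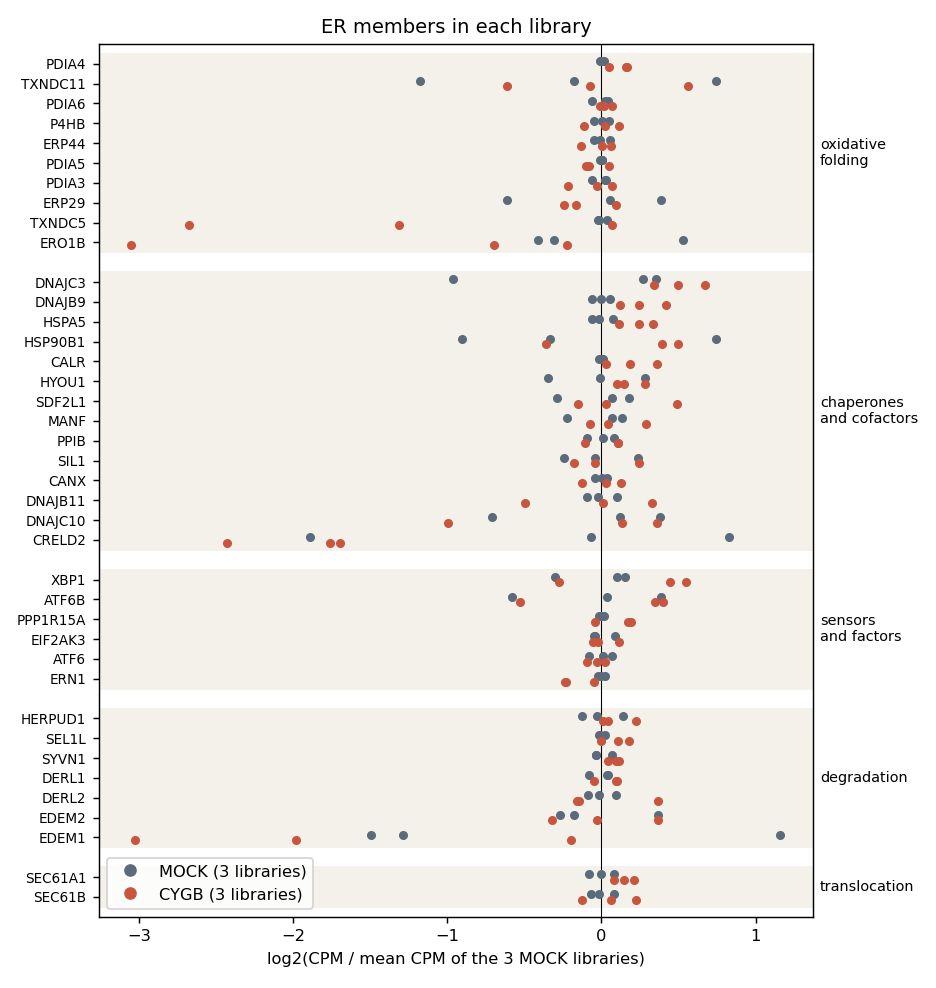
The CPM of each tested member in each library, as log2 of its ratio to the mean of the 3 MOCK libraries (x axis), with MOCK in grey and CYGB in red. For most genes the 6 points cluster at 0, while CRELD2, TXNDC5, ERO1B, EDEM1 and TXNDC11 spread widely within a group.

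In the P4HB gene as a whole, the MOCK libraries measured 2440, 2517 and 2354 CPM and the CYGB libraries 2477, 2253 and 2635 CPM. The CYGB values lay on both sides of the MOCK values, with means of 2437 ± 81.5 and 2455 ± 192 CPM (SD, n = 3 each). The log2 fold change was 0.01 ± 0.08 (SE, adjusted p = 0.998 by edgeR).

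Within that flat total, 3 P4HB transcripts met the threshold, and they differed in opposite directions. The table listed 21 P4HB transcripts, of which 17 passed the filter, and 14 of these did not meet the threshold. ENST00000415593 had 0 counts in each MOCK library, and 23247, 25273 and 21262 counts in the CYGB libraries. The MOCK and CYGB libraries were fully apart for this transcript, which took up 15.4% to 22.1% of the P4HB counts in CYGB cells. Against an assumed floor of 3 counts per MOCK library, its mean of 462 ± 48.7 CPM (SD, n = 3) was at least 7720-fold higher in CYGB libraries. This ratio describes the counts as listed and sets no bound on a difference in the RNA. The adjusted p was 0.0177 by edgeR's quasi-likelihood test, and 0.0247 to 0.150 when 1 library was left out. The adjusted p lay above 0.05 in the fits that left out any 1 of the 3 CYGB libraries. The transcript met the study's threshold in all 13 alternatives run on it.

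ENST00000575069, the nonsense-mediated decay form, showed the opposite pattern. It had MOCK counts of 37373, 40867 and 46537 and CYGB counts of 112, 595 and 207. Its share of the P4HB counts was 30.7% to 38.4% in MOCK cells and 0.0895% to 0.520% in CYGB cells. The CPM was 136-fold lower in CYGB cells, a log2 fold change of -7.09 ± 0.79 (SE), which met the threshold with an unadjusted edgeR p of 0.000146. The adjusted p was 0.139 by edgeR's quasi-likelihood test, and 3.52e-19 by DESeq2.

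The full-length coding transcript ENST00000331483 was higher in CYGB cells. Its counts were 16653, 21334 and 19234 in MOCK replicates and 35912, 46615 and 33648 in CYGB replicates, so that the lowest CYGB library lay above the highest MOCK library. The means were 379 ± 29.5 and 770 ± 151 CPM (SD, n = 3 each), a 2.03-fold difference with a log2 fold change of 1.02 ± 0.16 (SE) and an unadjusted edgeR p of 0.000783. The adjusted p was 0.259 by edgeR's quasi-likelihood test and 0.00392 by DESeq2. The ratio fell below the threshold without CYGB replicate 2 (0.86 on the log2 scale) and without MOCK replicate 1 (0.96), and the edgeR exact test gave an unadjusted p of 0.0194.

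**Figure D3:**
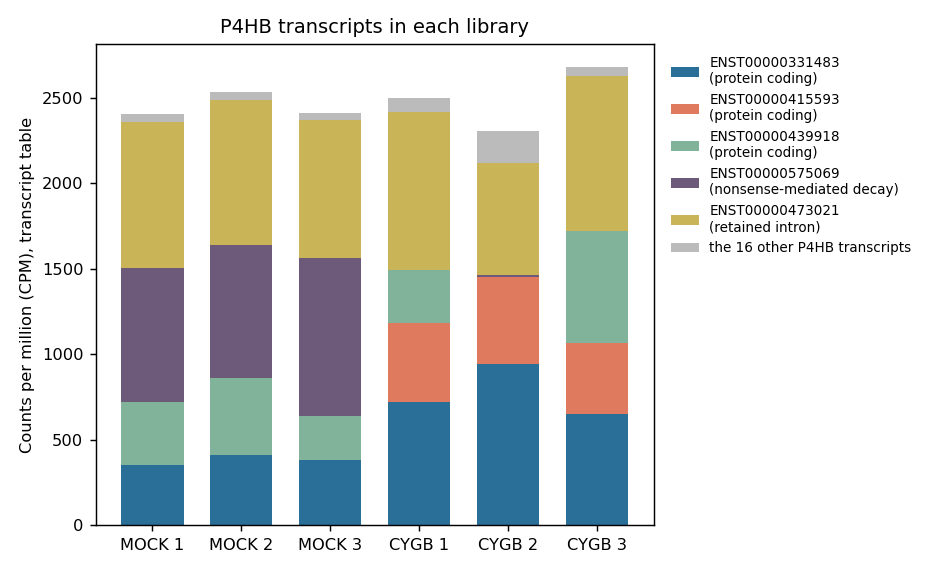
P4HB in each library as stacked CPM of the transcript table (y axis), with the 5 most abundant transcripts in colour and the other 16 in grey. The totals are alike in the 6 libraries, ENST00000575069 (purple) fills 30.7% to 38.4% of each MOCK bar and is hardly seen in CYGB, and ENST00000415593 (orange) is seen in the 3 CYGB bars and in no MOCK bar.

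Added together, the 3 transcripts had MOCK counts of 54026, 62201 and 65771 and CYGB counts of 59271, 72483 and 55117. The groups then overlapped, and the log2 fold change was 0.04 ± 0.13 (SE, adjusted p = 1.00 by edgeR in a fit with the 3 transcripts summed into 1, an alternative chosen after their values were seen). In that fit 0 P4HB transcripts met the threshold. The way in which reads were divided among transcripts is not given in the sources used here, so a difference in the RNA and a difference in that division cannot be told apart from the counts.

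How little sequence separates these transcripts could be counted for single reads. The reads came in pairs, which can tell apart forms that a single read cannot, and pairs were not counted. Reads were 150 bases long, and of the 2304 windows of 150 bases in ENST00000575069, 0 were absent from all other P4HB transcripts of the table, and 149 were absent from the other 4 abundant ones. ENST00000331483 had 72 windows of its own out of 2454, and ENST00000415593 had 83 out of 1520. The transcript ENST00000473021, which keeps an intron near the 3′ end and holds 225 such windows out of 765, had the highest mean count of all, with MOCK counts of 41122, 44383 and 40498 and CYGB counts of 46291, 32704 and 46820. It showed no group difference, with a log2 fold change of -0.01 ± 0.14 (SE, adjusted p = 1.00 by edgeR).

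**Figure D4:**
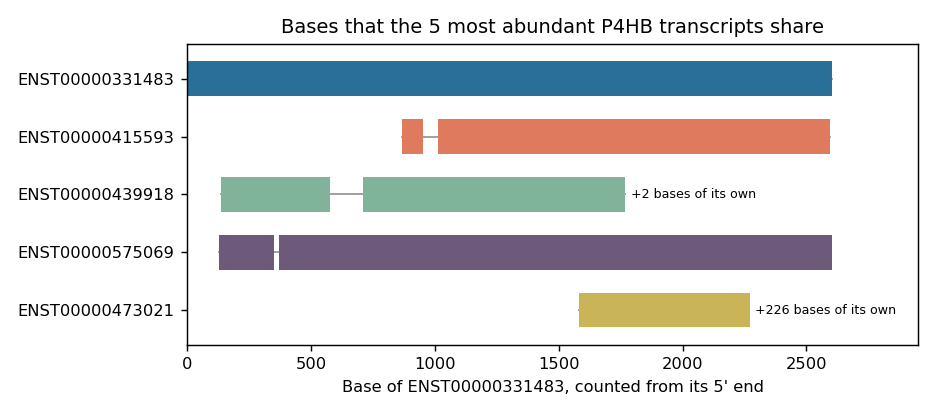
The bases of the full-length transcript ENST00000331483 (x axis, counted from its 5′ end) that each of the 5 most abundant P4HB transcripts contains, with missing stretches as thin lines and bases outside ENST00000331483 given as a number. ENST00000575069 differs within the transcript by 20 bases and ENST00000415593 by 60 bases, besides their ends.

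The protein-coding form without exon 3, ENST00000439918, varied within a group more than between groups. It had MOCK counts of 17846, 23911 and 12905 and CYGB counts of 15489, 0 and 33770. CYGB replicate 2, listed at 0 for it, also held 6273 counts of the retained intron form ENST00000476482, against 41 to 55 counts in the other 5 libraries. A further retained intron form, ENST00000574007, had MOCK counts of 1023, 994 and 759 and CYGB counts of 2192, 1489 and 1197 (log2 fold change 0.81 ± 0.30, SE, with an adjusted p of 1.00 by edgeR). For ENST00000574007 all CYGB counts lay above all MOCK counts, and the share of all transcripts with such a separation was not counted. For ENST00000476482 the log2 fold change rested on 1 library, CYGB replicate 2 (unadjusted p of 0.0499 by edgeR). The other 10 tested P4HB transcripts (ENST00000466567, ENST00000467086, ENST00000472244, ENST00000474712, ENST00000477607, ENST00000478034, ENST00000484286, ENST00000570907, ENST00000571507 and ENST00000576052) had at most 939 counts in any library and log2 fold changes from -0.35 to 0.92. The 4 transcripts that did not pass the filter had at most 119 counts.

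Across the whole table such patterns were uncommon but present. Among 66609 transcripts tested, 1.02% met the threshold and 0.015% had an adjusted p under 0.05. Among 173 tested transcripts of the members, the 3 of P4HB were the only ones that met the threshold by edgeR's quasi-likelihood test, 1.73% of them, and ENST00000415593 was the only one with an adjusted p under 0.05 by that test. DESeq2 also put ENST00000617285 of HYOU1, an ER chaperone of the Hsp70 family, at the threshold. Its MOCK counts were 2998, 222 and 5260 and its CYGB counts 109, 323 and 96, which overlapped (log2 fold change -4.01 and adjusted p of 0.0426 by DESeq2). P4HB was the 1 member among 56 genes that had a transcript called higher and another called lower, 0.286% of the 19602 genes with a tested transcript. In CANX a shift between transcripts was seen in CYGB replicate 2 alone, with neither transcript called. There ENST00000452673 took 86.6% of the CANX counts, against 2.51% to 3.06% in the other libraries. ENST00000247461 took 13.0% there, against 96.6% to 97.2% in the others. The CANX gene log2 fold change was 0.01 ± 0.08 (SE). ENST00000415593 was 1 of 5 transcripts at 0 counts in all MOCK libraries and at 1000 counts or more in all CYGB libraries, while 1 transcript of the table had the reverse. Of the 11183 transcripts with at least 1000 counts in some library, 743 (6.64%) were at 0 in another, as were 4 of 58 member transcripts.

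None of the other members of oxidative folding met the threshold. The highest CPM was 1.09 to 1.14 times the lowest for PDIA4, PDIA5, PDIA6 and ERP44, 1.22 times for PDIA3 and 1.17 times for P4HB, while it was 2.00 times for ERP29, 3.79 times for TXNDC11 and 6.70 times for TXNDC5. PDIA4, a disulfide isomerase with several thioredoxin-like domains, measured 995, 1009 and 993 CPM in MOCK and 1115, 1035 and 1120 CPM in CYGB libraries. All 3 CYGB values lay above the MOCK values, a log2 fold change of 0.13 ± 0.06 (SE, unadjusted p of 0.0771 and adjusted p of 0.963 by edgeR). Such a separation upwards was found in 4 members (10.3% of the 39), against 5.72% of all genes, and a separation downwards in 1 member (2.56%), against 5.31% of all genes. The log2 fold changes of PDIA3, PDIA5, PDIA6, ERP29, ERP44 and TXNDC11 lay between -0.10 and 0.04.

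TXNDC5 (ERp46), a thioredoxin-domain oxidoreductase, and ERO1B, an oxidase that recharges the isomerases, had the lowest log2 fold changes of this role. TXNDC5 is outside the rule for named genes and was chosen after its values were seen. It measured 433, 450 and 434 CPM in MOCK libraries, and 461, 68.8 and 177 CPM in CYGB libraries. CYGB replicate 1 was at the MOCK level and the other 2 CYGB libraries were far below it, so that the log2 fold change was -0.90 ± 0.63 (SE, adjusted p = 0.963 by edgeR). It was -1.84 and met the threshold without CYGB replicate 1 (unadjusted p of 0.00709 and adjusted p of 0.885 by edgeR), and -0.47 without CYGB replicate 2.

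The readthrough gene BLOC1S5-TXNDC5, which shares the exons of TXNDC5 on the same strand, moved the other way in the library where TXNDC5 was lowest. It had MOCK counts of 0, 0 and 780 and CYGB counts of 0, 16799 and 1074, beside 20453, 23782 and 22360, and 23290, 3495 and 9286 counts of TXNDC5. With both genes summed, CYGB replicate 2 returned to 399 CPM, near the MOCK libraries (433 to 450 CPM), and CYGB replicate 3 remained lower at 197 CPM (log2 fold change -0.33 ± 0.30, SE, adjusted p = 0.963 by edgeR). Because the 2 genes share sequence, the TXNDC5 value alone is uncertain. ERO1B measured 3.05, 1.59 and 1.71 CPM in MOCK and 1.31, 0.256 and 1.81 CPM in CYGB libraries. These values overlapped (log2 fold change -0.91 ± 0.67, SE, adjusted p = 0.963 by edgeR).

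Among 14 chaperones and cofactors, 11 had a positive and 3 a negative log2 fold change, with a median of 0.12, and none met the threshold. HSPA5, the ER Hsp70 chaperone BiP and the standard readout of the unfolded protein response, measured 2237, 2315 and 2460 CPM in MOCK and 2947, 2535 and 2764 CPM in CYGB libraries. The groups did not overlap. The means were 2337 ± 113 and 2749 ± 206 CPM (SD, n = 3 each), a 1.18-fold difference (log2 fold change 0.23 ± 0.08, SE, unadjusted p of 0.0227 and adjusted p of 0.963 by edgeR), and it lay between 0.18 and 0.29 with any 1 library left out.

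CALR, the lectin chaperone calreticulin, measured 1677, 1646 and 1670 CPM in MOCK and 2135, 1696 and 1890 CPM in CYGB libraries. DNAJB9 (ERdj4), a BiP cochaperone that restrains IRE1, measured 19.2, 18.4 and 20.0 CPM in MOCK and 25.7, 22.7 and 20.9 CPM in CYGB libraries. In both genes the lowest CYGB library was just above the highest MOCK library. Their log2 fold changes were 0.20 ± 0.09 and 0.27 ± 0.13 (SE), with unadjusted p of 0.0766 and 0.0786 (edgeR).

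DNAJC3 (p58IPK), a cochaperone that also holds back PERK, had the highest log2 fold change of all members, 0.51 ± 0.34 (SE, adjusted p = 0.963 by edgeR). Its values were 65.1, 162 and 153 CPM in MOCK and 202, 179 and 161 CPM in CYGB libraries. MOCK replicate 1 alone stood low, and leaving it out gave a log2 fold change of 0.19. In that library 1018 of the counts were listed under the shorter transcript ENST00000376795, which was at 0 in the other 5 libraries.

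CRELD2, a secreted ER stress protein with disulfide isomerase activity, had the lowest log2 fold change of all members. It measured 69.0, 37.2 and 10.5 CPM in MOCK and 11.5, 12.0 and 7.23 CPM in CYGB libraries. MOCK replicates 1 and 2 were high, while MOCK replicate 3 lay among the CYGB values. The log2 fold change was -1.92 ± 0.65 (SE, unadjusted p of 0.0251 and adjusted p of 0.963 by edgeR), and it ranged from -2.37 without MOCK replicate 3 to -1.22 without MOCK replicate 1. CRELD2 was the 1 member that met the threshold with DESeq2 (unadjusted p of 0.00234, adjusted p of 0.201) and with the edgeR exact test (unadjusted p of 0.00451, adjusted p of 0.417). Its main transcript ENST00000328268 had MOCK counts of 2837, 1146 and 329 and CYGB counts of 241, 375 and 22. ALG12, a mannosyltransferase gene on the opposite strand that overlaps CRELD2, had MOCK counts of 978, 1271 and 774 and CYGB counts of 628, 1315 and 1556, and its share in the CRELD2 value was not tested.

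**Figure D5:**
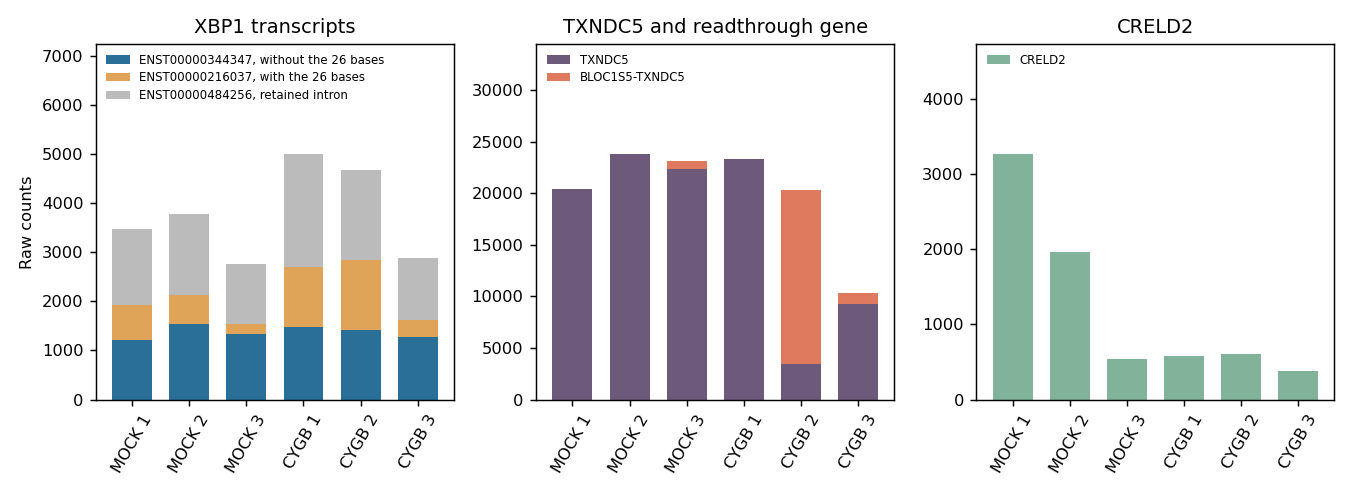
Raw counts (y axis) of 3 XBP1 transcripts, of TXNDC5 with its readthrough gene, and of CRELD2 in each library (x axis). The spliced XBP1 form (blue) is level, the readthrough gene (orange) fills most of the TXNDC5 bar of CYGB replicate 2, and CRELD2 is high in MOCK replicates 1 and 2.

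The other 9 chaperones and cofactors had log2 fold changes from -0.06 to 0.22, and all of their groups overlapped. HSP90B1 (GRP94), usually among the most abundant ER chaperones, received only 41.2 to 129 CPM, with 129, 61.2 and 41.2 CPM in MOCK and 109, 60.2 and 101 CPM in CYGB libraries. The range within MOCK was wider than the difference between the groups.

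The 3 sensors were expressed in all libraries, and none differed beyond the threshold. ATF6 measured 94.9, 101 and 105 CPM in MOCK and 94.4, 102 and 98.7 CPM in CYGB libraries. EIF2AK3 (PERK) measured 39.5, 36.0 and 36.2 CPM in MOCK and 40.3, 36.7 and 35.9 CPM in CYGB libraries. For both sensors the groups overlapped, with log2 fold changes of -0.03 ± 0.08 and 0.02 ± 0.10 (SE), which turned sign when some single libraries were left out.

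ERN1 (IRE1) was the 1 member with all CYGB libraries below all MOCK libraries. It measured 43.4, 42.5 and 42.1 CPM in MOCK and 36.2, 36.4 and 41.2 CPM in CYGB libraries, a log2 fold change of -0.17 ± 0.10 (SE, unadjusted p of 0.139 and adjusted p of 0.963 by edgeR). PPP1R15A (GADD34), the phosphatase subunit that reverses the PERK signal and the member of this role with the most counts, measured 103, 101 and 102 CPM in MOCK and 99.1, 117 and 115 CPM in CYGB libraries. The CYGB values of PPP1R15A lay on both sides of the MOCK values.

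XBP1 measured 75.6, 72.9 and 55.1 CPM in MOCK and 99.4, 92.4 and 56.0 CPM in CYGB libraries. CYGB replicates 1 and 2 were above all other libraries and CYGB replicate 3 was at the level of MOCK replicate 3 (log2 fold change 0.28 ± 0.24, SE, adjusted p = 0.963 by edgeR). The spliced transcript printed above, ENST00000344347, was level, with MOCK counts of 1210, 1540 and 1336 and CYGB counts of 1482, 1426 and 1280. The unspliced transcript ENST00000216037 had MOCK counts of 707, 599 and 199 and CYGB counts of 1220, 1408 and 344, overlapping between the groups. Of the counts on both, the spliced transcript took 63.1%, 72.0% and 87.0% in MOCK and 54.8%, 50.3% and 78.8% in CYGB libraries. These shares overlapped (74.1 ± 12.1% and 61.3 ± 15.3%, SD, n = 3 each, two-sided exact permutation p = 0.30, where 3 against 3 libraries cannot go below 0.10). A transcript with a retained intron, ENST00000484256, which also holds the 26 bases, received MOCK counts of 1557, 1644 and 1224 and CYGB counts of 2290, 1839 and 1251. Neither it nor ENST00000403532, which holds them too, enters the shares. The shares are of raw counts, not scaled by transcript length. Of 1701 windows of 150 bases in ENST00000216037, 30 were absent from the other XBP1 transcripts, against 143 of 982 in ENST00000344347. How much of XBP1 was spliced cannot be read from these shares.

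In degradation, 6 of 7 tested members had a positive log2 fold change, all of 0.10 or less, and none met the threshold. SEL1L, the adaptor of the ligase complex and the member of this role with the most counts, measured 187, 192 and 187 CPM in MOCK and 213, 203 and 188 CPM in CYGB libraries. The lowest CYGB library lay within the MOCK range (log2 fold change 0.10 ± 0.07, SE, adjusted p = 0.963 by edgeR). EDEM1, which picks misfolded glycoproteins for degradation, was barely detected, at 0.381, 2.08 and 0.330 CPM in MOCK and 0.812, 0.236 and 0.114 CPM in CYGB libraries. Its log2 fold change of -1.27 ± 1.00 (SE) rested on MOCK replicate 2, and was 0.12 without it. HERPUD1, SYVN1, EDEM2, DERL1 and DERL2 had log2 fold changes from 0.03 to 0.10.

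In translocation, SEC61A1, the pore subunit, measured 164, 173 and 183 CPM in MOCK and 200, 183 and 192 CPM in CYGB libraries. The groups touched at 183 CPM, and the log2 fold change was 0.15 ± 0.08 (SE, adjusted p = 0.963 by edgeR). SEC61B, a small subunit of the channel, had 0.06 ± 0.11 (SE).

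A wider list of 94 ER genes gave the same kind of result. Of these, 90 passed the filter. By edgeR, 0 met the threshold, against 0.565% of all genes, and 0 had an adjusted p under 0.05, against 0.055% of all genes. With shares this low over all genes, a count of 0 does not set these genes apart. An unadjusted p under 0.05 by edgeR was found for 3 of the 90 (MAN1B1, STT3A and FAF2), against 4.54% of all genes. DESeq2 also gave 0 at the threshold and 3 at an unadjusted p under 0.05, with no share over all genes counted for that test. Their log2 fold change was positive for 63 genes (70%) and negative for 27, with a median of 0.06, against 48.8% positive over all genes. In 8 genes (8.89%) all CYGB libraries lay above all MOCK libraries, against 5.72% of all genes, and in 0 genes all lay below, against 5.31% of all genes.

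The partners of P4HB were in this list. P4HA1, the main catalytic alpha subunit of prolyl 4-hydroxylase here by counts, measured 433, 433 and 394 CPM in MOCK and 330, 426 and 381 CPM in CYGB libraries (log2 fold change -0.15 ± 0.11, SE, adjusted p = 0.963 by edgeR). P4HA2 lay between 16.2 and 30.4 CPM and P4HA3 between 1.07 and 2.56 CPM, with overlapping groups. MTTP, the lipid transfer protein, was near the limit of detection at 0.228 to 0.606 CPM. ERO1A, the oxidase that pairs with P4HB, measured 389, 131 and 402 CPM in MOCK and 375, 503 and 408 CPM in CYGB libraries. MOCK replicate 2 alone stood low, and without it the log2 fold change of ERO1A was 0.12 in place of 0.48.

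The ER stress response element is bound by NF-Y at its CCAAT part and by ATF6 or XBP1 at its CCACG part. In the members' promoters it was searched as CCAAT, 9 bases of any kind and CCACG, on both strands, from 250 bases before to 50 after each RefSeq start (GRCh38.p14). The element was present for 8 of the 37 members with a promoter sequence (21.6%), against 1 of 79 other ER genes (1.27%) and 25 of 27305 genes in all (0.0916%). The member list was drawn up around the response whose factors bind this element, so the higher share is not a result of these counts. CCAAT alone, which the element contains, was present for 29 of 37 members and 39.7% of all genes. Sites from genes described above are shown with both parts in capitals, because genes with the same element differed in sign.
HSPA5, chr9:125241391-125241409, minus strand: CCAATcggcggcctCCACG
XBP1, chr22:28800603-28800621, minus strand: CCAATcgcggagggCCACG
CALR, chr19:12938384-12938402, minus strand: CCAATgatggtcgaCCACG
CRELD2, chr22:49918554-49918572, minus strand: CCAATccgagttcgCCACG

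The 8 members with the element (CALR, CANX, CRELD2, ERO1B, HSP90B1, HSPA5, PDIA6 and XBP1) had log2 fold changes from -1.92 in CRELD2 to 0.28 in XBP1, with a median of 0.11, and 6 of 8 were positive. The 29 tested members without it ranged from -1.27 to 0.51, with a median of 0.04, and 20 were positive. The CRELD2 site lies inside the GENCODE 29 span of the gene (chr22:49918167-49927540), 80 bases before the RefSeq start used for the search. A match describes the sequence and does not show that a factor binds there.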

How the data were processed

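Total RNA of 3 MOCK and 3 CYGB libraries of HCT116 cells was sequenced by the authors as read pairs of 150 bases on an Illumina NovaSeq instrument. The values used are raw read counts per transcript as deposited by the authors, with no normalization; the submitters' processing notes name HISAT2, DESeq2 and hg19, and the tool that assigned reads to transcripts, its use of strand and its handling of shared reads are not given in the sources used here. The transcript positions of the table equalled those of GENCODE 29 on GRCh38 for 99.5% of 151393 transcripts and for 280 of 281 member transcripts, so that build was used. The table held 172678 transcripts, of which 21225 without a gene were left out.

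Counts were summed per gene, filtered with filterByExpr (minimum count 10), scaled by TMM and tested by edgeR 4.0.16 (limma 3.58.1, R 4.3.3), quasi-likelihood test, CYGB against MOCK, over all 19987 genes and, separately, all 66609 transcripts, with Benjamini-Hochberg adjustment over each whole table. CPM are TMM-scaled. The SE is the size of the log2 fold change divided by the root of the test's F. TPM use GENCODE 29 transcript lengths. The scripts were tested on simulated counts. Promoters were matched by symbol for 37 of 40 members. Python 3.11.15 and matplotlib 3.10.9 drew the plots.

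The members and lists were chosen with earlier results of these data known. Named were P4HB and each of its tested transcripts; members past the threshold, at an unadjusted p under 0.05 or with groups that did not overlap; the 3 highest and 3 lowest log2 fold changes; the member with most counts in each role; the sensors and XBP1; and 5 partners of P4HB. Exons of 25 members overlap another annotated gene. The deviations of same-numbered replicates had correlations of 0.0159, 0.00487 and 0.0253, so no shared deviation by number was seen. Whether same-numbered libraries were cultured or prepared together is not given in the sources used here, and these correlations cannot decide it. Alternatives were DESeq2 1.42.0 and its size factors, the edgeR exact test, 2 other filters, the replicate number as a block, inclusion of transcripts without a gene, the most abundant transcript of a gene, and leaving out each library.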

Additional observations from a re-analysis of the deposited data

How the results depend on the processing

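The count of members at the threshold, 0 in the main test, was 1 with DESeq2 and 1 with the edgeR exact test (CRELD2 in both), and 0 to 1 with single libraries left out (CRELD2 without MOCK replicate 3, TXNDC5 without CYGB replicate 1); the cause was not tested. It was 0 with the other alternatives, and the counts of members at an adjusted p under 0.05 and of other ER genes at the threshold were 0 in every alternative run. Shares over all genes and all transcripts were counted for the main test only. The count of member transcripts at the threshold was 3 in the main test and 4 with DESeq2 (with HYOU1 ENST00000617285). It was 5 with the edgeR exact test (with the same HYOU1 transcript, TXNDC5 ENST00000460138 and P4HB ENST00000476482, and without P4HB ENST00000331483). It was 3 to 5 with single libraries left out, where transcripts of HYOU1, SEL1L and XBP1 were also called. Summing the 3 similar P4HB transcripts gave 0, and by construction leaves 1 row in place of 3. For P4HB alone the count was 2 to 3 with single libraries left out and 0 when summed. Without CYGB replicate 2, the 3 included ENST00000576380 (log2 fold change 9.54) in place of ENST00000331483. ENST00000576380 did not pass the filter in the main test. The P4HB gene log2 fold change of 0.01 ranged from -0.041 to 0.065 with single libraries left out and was -0.011 for the most abundant transcript. With single libraries left out, the log2 fold changes of ATF6 (-0.072 to 0.0045), EIF2AK3 (-0.038 to 0.058), EDEM1 (-2.40 to 0.12) and P4HA2 (-0.38 to 0.11) also turned sign, none of them past the threshold. With the replicate block the members at the threshold were 0, the P4HB transcripts at the threshold 3 and the P4HB gene log2 fold change 0.0080; the adjusted p of ENST00000415593 was 0.995 (0.00127 unadjusted), and no call by the study's threshold changed. DERL3 had at most 6 counts in a library and was not tested; the part of depth in the other values was not tested.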
